A study of Drosophila melanogaster with 32 samples.

Results

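The miRNAs miR-8, miR-278 and miR-33 are 3 Drosophila small RNAs tied in the literature to insulin signalling and metabolism, and both arms of each were followed here in the 2 Argonaute proteins of adult flies. The members were every row of the read table for reads of up to 25 nt whose name begins with miR-8-, miR-278- or miR-33-. This gave 6 of 209 miRNA rows, in a table that also lists 122 transposons and 1 virus. All 6 members passed the filter on low counts in each fit of this table, which required at least 5 reads a library on average.

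Ago1 or Ago2 was precipitated from 40 whole flies a sample, and the RNA bound to it was sequenced as small RNA libraries. The flies were wDah, the wildtype strain that all groups share, or dFOXO-null (wDah; foxoΔ94), a mutant made by imprecise P-element excision and backcrossed into wDah. Males and females of each genotype were taken at 5 d and at 35 d, in 2 numbered experiments, which made 32 libraries in 16 groups. The 5 d and 35 d flies of a genotype and experiment were siblings, and the sexes had been kept together, so that same-numbered libraries share a source. The foxo transcript was not analysed here, so the mutant has no check in these libraries, and whole flies cannot tell more cells of a type from more RNA per cell.

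A miRNA is cut from a hairpin as a duplex, of which usually one arm (the main arm) stays in the Argonaute protein and the other (the minor arm) is lost. Most fly miRNAs are sorted to Ago1, while Ago2 takes mainly siRNAs and some miRNA arms, which it protects by 2′-O-methylation of their last base. In flies, miR-8, a member of the conserved miR-200 family, promotes growth in the larval fat body by repressing u-shaped, an inhibitor of PI3 kinase signalling. Loss of miR-278, which represses expanded in the fat body, is known to give flies that are lean and insulin resistant. miR-33 lies in the gene for the sterol regulatory element binding protein, a transcription factor for lipid synthesis, and its mammalian relatives repress genes for cholesterol export and fatty acid oxidation. FOXO is the transcription factor that insulin signalling holds out of the nucleus.

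In the dm6 annotation, mir-33 was at chr3L:19797961-19798059 on the plus strand, within an intron of all 4 SREBP transcripts. The mature arms of miR-33 are shown because most of the differences below concern them, with the seed, bases 2 to 8, in capitals.
miR-33-5p: gUGCAUUGuagucgcauuguc
miR-33-3p: cAAUACAAcuucagugcaagcu
miR-33-5p spans chr3L:19797986-19798006 and miR-33-3p chr3L:19798025-19798046, giving arms of 21 and 22 nt. Both are marked in capitals in the hairpin of 99 nt, shown because the ratio of the 2 arms is compared below.
mir-33: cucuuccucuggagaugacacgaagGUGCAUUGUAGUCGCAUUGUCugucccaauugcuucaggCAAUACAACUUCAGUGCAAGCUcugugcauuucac

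The other hairpins were on chromosome arm 2R. mir-8 (chr2R:16831432-16831518, plus strand) overlapped an exon in both transcripts of the non-coding gene CR43650, and mir-278 (chr2R:15657066-15657163, plus strand) overlapped an exon in 1 of the 3 transcripts of CG42524. Their arms measured 22 nt (miR-8-5p), 23 nt (miR-8-3p), 23 nt (miR-278-5p) and 22 nt (miR-278-3p). Of the 485 annotated mature miRNAs, 0 others shared a seed with any of the 6 members.

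Ago1 libraries held 838988 to 5398798 mapped reads and Ago2 libraries only 30604 to 561722, so that minor arms in Ago2 rest on few reads. miRNAs made up 98.6 to 99.8% of Ago1 reads. In Ago2 they were 74.8 to 96.0% of the reads in males and 55.5 to 69.5% in females, the rest being transposon and viral reads. A level given as percent of mapped reads in Ago2 therefore moves with these other reads too, and results that depend on this scaling are named as such.

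The 3 main arms were abundant in Ago1. miR-8-3p took 2.58 to 6.99% of mapped reads (median 4.06%, n = 16) and had a median rank of 7 among miRNAs, miR-278-3p took 1.11 to 3.60% (median 1.46%, rank 13), and miR-33-5p took 0.0537 to 0.202% (median 0.124%, rank 44.5). miR-8-3p exceeded miR-278-3p within every Ago1 library, although their ranges overlapped, and both stood apart from miR-33-5p. Among the minor arms, miR-8-5p had a median of 0.134% (0.0399 to 0.809%) in Ago1, close to miR-33-5p and overlapping with it, while miR-278-5p had 0.0105% (0.00607 to 0.0217%) and miR-33-3p 0.00053%, which stood for 3 to 63 reads a library. In Ago2 the order of the main arms was the same, with medians of 3.76% for miR-8-3p, 0.961% for miR-278-3p and 0.336% for miR-33-5p, but miR-33-5p (0.0625 to 0.874%) overlapped miR-278-3p (0.494 to 1.68%). miR-33-3p reached 0.00188 to 0.0665% in Ago2, although this was only 1 to 48 reads.

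**Figure D1:**
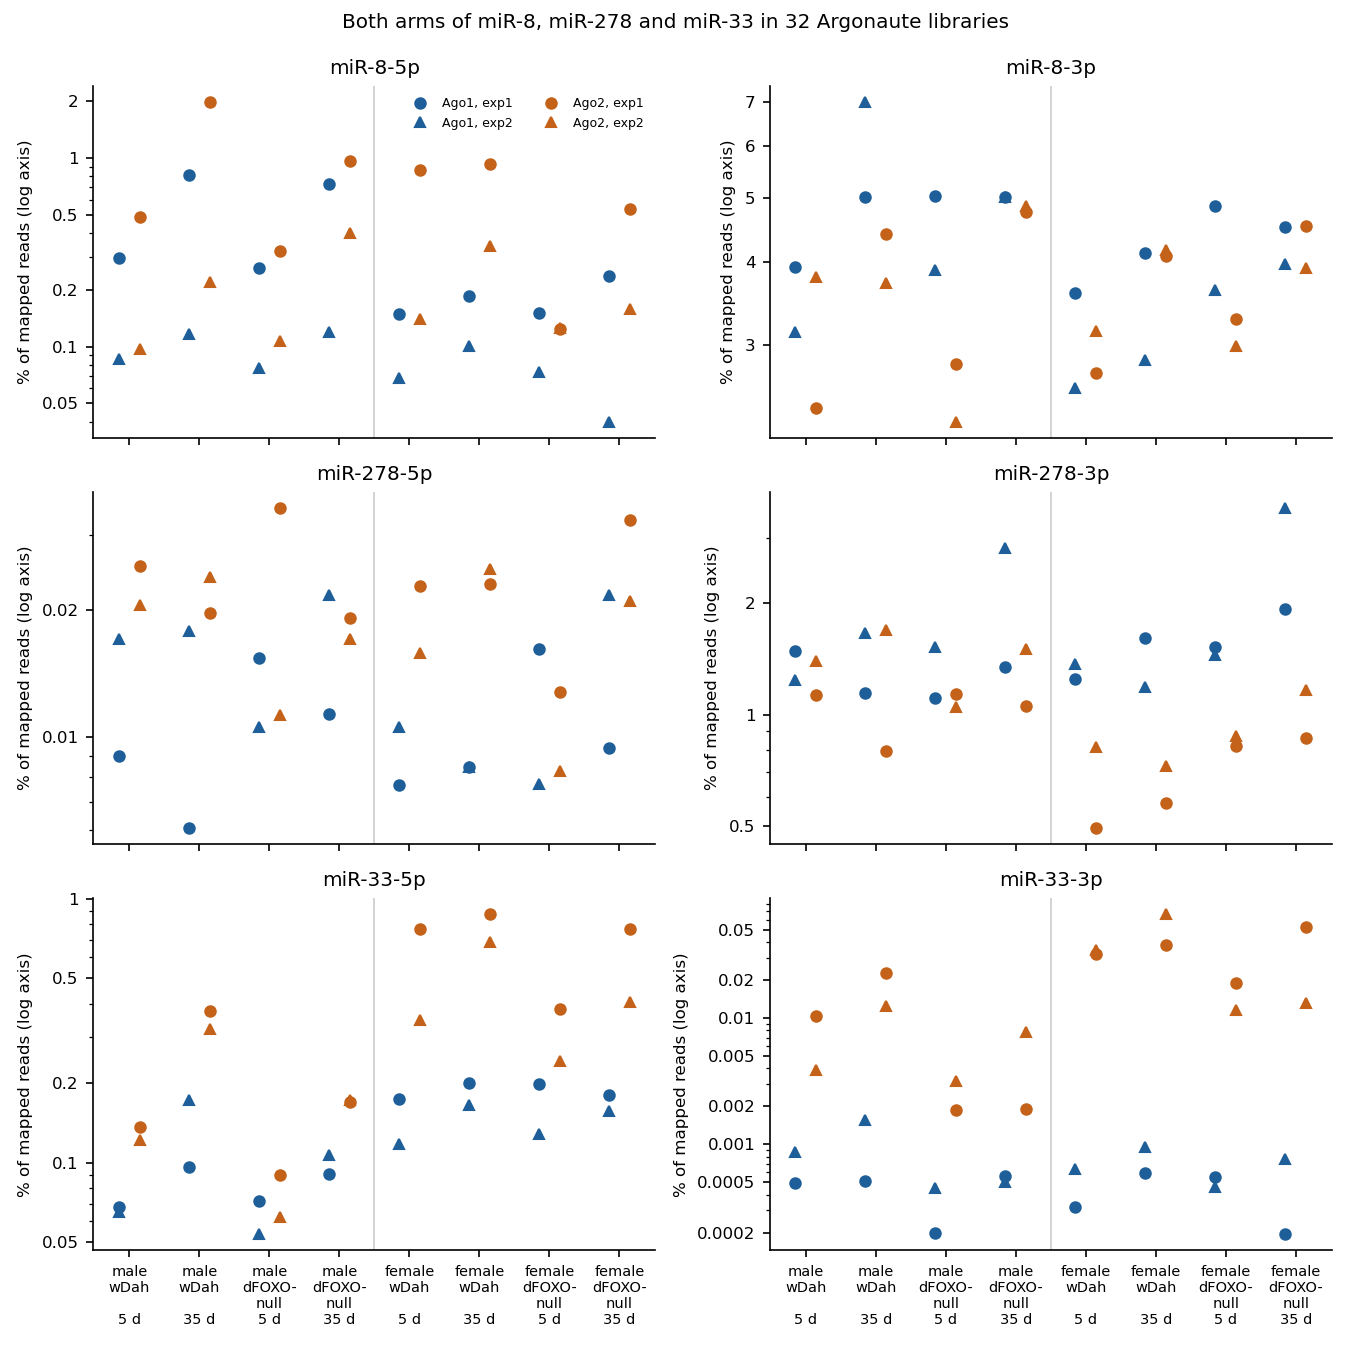
Level of each of the 6 arms in every library, as percent of mapped reads on a log axis that differs between panels, with 1 point per library, by precipitate (colour), experiment (shape), sex, genotype and age. miR-8-3p and miR-278-3p lie above the other arms in every Ago1 library, and miR-33-5p is higher in females (median 0.545%) than in males (0.153%) in Ago2.

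miR-8-5p differed mainly between the experiments. In Ago1 its 8 libraries of experiment 1 had 0.148 to 0.809% and those of experiment 2 had 0.0399 to 0.120%, without overlap, and in Ago2 the medians were 0.699% and 0.150%. Its partner arm miR-8-3p overlapped between the experiments in Ago1, with 3.60 to 5.05% (median 4.70%) in experiment 1 and 2.58 to 6.99% (median 3.76%) in experiment 2. The main fits below pool both experiments. For miR-8-5p the mean log2 differences of matched pairs in experiments 1 and 2 are therefore given here. For Ago2 against Ago1 they were 1.06 and 1.11. From 5 d to 35 d they were 0.98 and 0.19 in Ago1, and 1.45 and 1.17 in Ago2. For females against males they were -1.38 and -0.55 in Ago1, and -0.61 and 0.015 in Ago2. For dFOXO-null against wDah they were 0.016 and -0.34 in Ago1, and -1.31 and -0.064 in Ago2.

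The first question was which arms each Argonaute held. All 3 duplexes had a larger share of their minor arm in Ago2 than in Ago1. miR-33-3p was 0.00019 to 0.00157% of mapped reads in Ago1 and 0.00188 to 0.0665% in Ago2. Every Ago2 library exceeded every Ago1 library, although in the shallower Ago2 libraries 1 read is enough for this. The dFOXO-null male library at 35 d of experiment 1, with 52421 mapped reads, had 0.00191% from 1 read. The reads of miR-33 that were the 5p arm went from a median of 99.5% in Ago1 to 95.6% in Ago2. For miR-278, the 5p share rose from 0.697% (0.487 to 1.36%) to 1.84% (0.941 to 4.40%), and for miR-8 from 3.23% (0.993 to 13.9%) to 7.60% (2.51 to 31.0%). The ranges of miR-278 and miR-8 overlapped between the Argonautes, and the comparison rested on the 16 matched pairs of libraries. These pairs come from 2 numbered experiments and include siblings. They are therefore not independent, although the permutation tests of pairs below treat them so.

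The log2 ratio of 5p to 3p reads, which no scaling of libraries can move, differed between the Argonautes by 1.32 ± 0.193 (SE, n = 16) for miR-8, higher in Ago2 in 15 of 16 pairs (exact two-sided sign-flip permutation test, p = 6.1e-05). In miR-278 the same ratio was higher in Ago2 in 16 of 16 pairs, by 1.50 ± 0.242. In miR-33 it was higher in 0 of 16 pairs, with -3.34 ± 0.291, and both had p = 3.05e-05 in the exact test, the smallest that 16 sign flips allow. These changes are not particular to the 3 duplexes: of 35 duplexes with enough reads on both arms, 91.4% had a larger share of the minor arm in Ago2, with a median difference of 1.73. miR-33 ranked 6 among the 35, miR-278 20 and miR-8 21. Over 18 tests of the arm ratios by sex, age and genotype, the lowest Benjamini-Hochberg adjusted p was 0.188 (exact permutation tests, n = 8 pairs each).

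**Figure D2:**
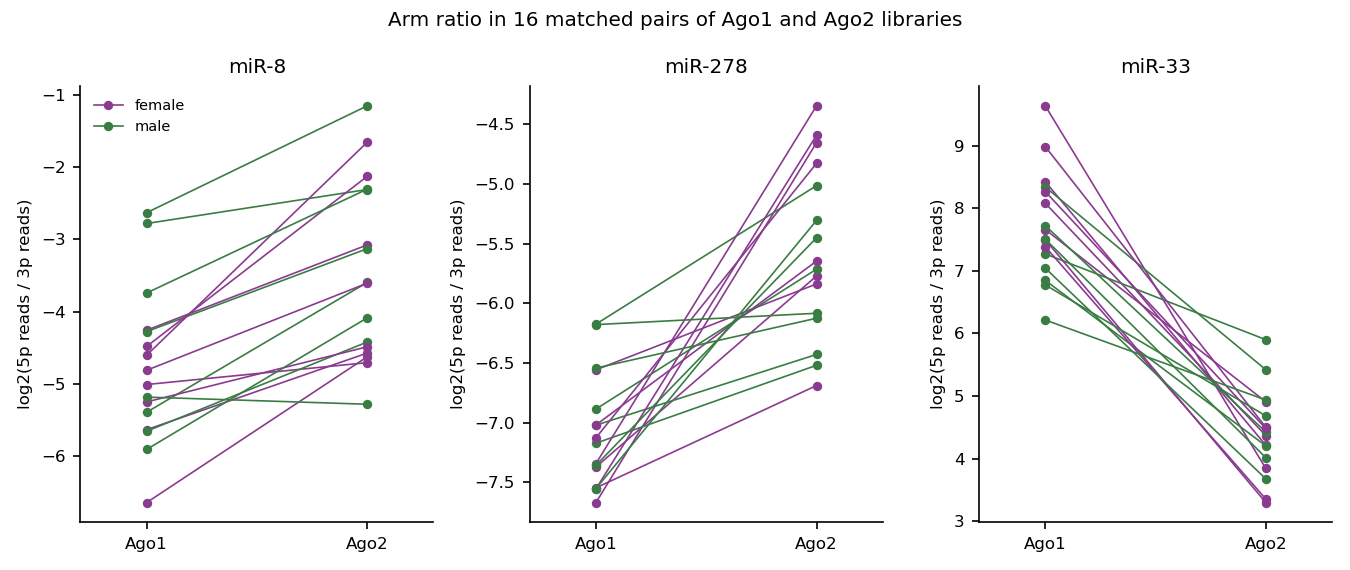
Log2 ratio of 5p to 3p reads of miR-8, miR-278 and miR-33, with a line joining the Ago1 and Ago2 libraries of 1 genotype, sex, age and experiment, coloured by sex. The lines rise in 15 of 16 pairs for miR-8 and in 16 of 16 for miR-278, whose 5p arm is the minor one, and fall in 16 of 16 for miR-33.

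By level, 5 of the 6 members passed the test between Ago2 and Ago1 (edgeR quasi-likelihood test, adjusted p under 0.05). Of all 303 features 59.4% did (47.9% higher and 11.6% lower), and of the 194 miRNAs 43.3% (25.3% higher and 18% lower). miR-33-3p was higher in Ago2 by 4.54 ± 0.31 on the log2 scale (SE; adjusted p = 2.2e-12), in 16 of 16 pairs, and under every scaling tried. miR-278-3p was lower by -0.70 ± 0.15 (adjusted p = 0.000223), in 13 of 16 pairs, with a negative difference under every scaling, though its adjusted p was 0.097 with miRNA reads alone as the library size. miR-33-5p was higher by 1.27 ± 0.16 in 16 of 16 pairs, miR-8-5p by 1.09 ± 0.41 in 15 and miR-278-5p by 0.70 ± 0.24 in 13, but these 3 differences became negative with TMM factors (-0.57, -0.69 and -1.13) and passed there in the opposite direction (adjusted p = 0.030, 0.034 and 0.00051). Under TMM the median of all features moved from 1.06 to -0.74. miR-8-3p had -0.24 ± 0.11 (adjusted p = 0.060), which passed with experiment number as a block (-0.23, adjusted p = 0.026) and was much lower with TMM (-2.04, adjusted p = 3.5e-11) and with 21-nt reads (-0.80, adjusted p = 1.2e-05), but 0.19 (adjusted p = 0.13) with miRNA reads as the library size. The call of miR-8-5p was lost without any 1 of 6 Ago2 libraries, all of experiment 1, those of wDah at both ages and sexes, of dFOXO-null males at 5 d and of dFOXO-null females at 35 d, with differences between 0.80 and 0.98 without them.

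**Figure D3:**
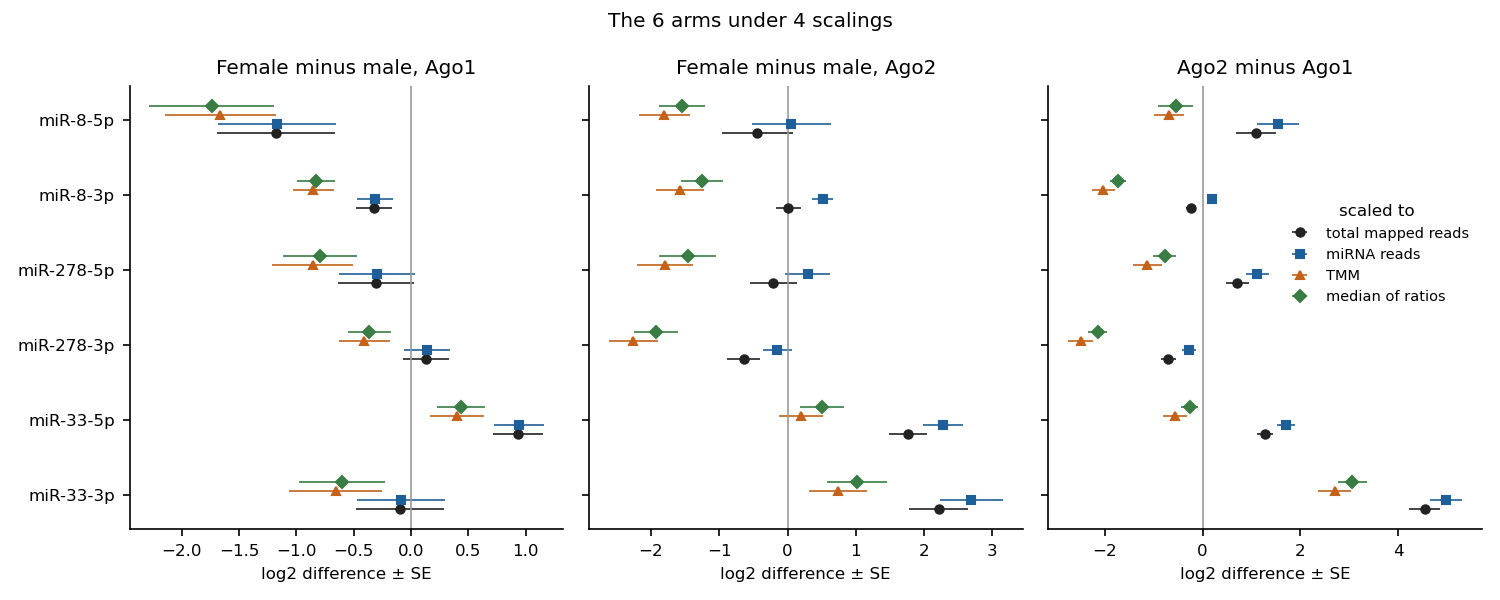
Log2 difference of each arm under 4 scalings of the libraries, with SE bars from edgeR, for females against males in each precipitate and for Ago2 against Ago1. miR-33-3p keeps a positive difference between Ago2 and Ago1 under each of them, while miR-33-5p, miR-8-5p and miR-278-5p change sign with TMM and with median-of-ratios factors.

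Since levels of the main arms depended on the scaling, the arms were also set against one another within each library, a measure that was added after the data had been seen. Per 100 reads of miR-8-3p, Ago1 libraries held 1.38 to 5.83 reads of miR-33-5p (median 3.01) and Ago2 libraries 2.72 to 28.3 (median 8.60). Ago2 was higher in 16 of 16 matched pairs, by 1.49 on the log2 scale (exact sign-flip permutation test, p = 3.05e-05; adjusted over the 21 tests of such ratios, p = 0.00032). Of 54 miRNAs measured against miR-8-3p, 11.1% were higher in Ago2 in all pairs. Against miR-278-3p, miR-33-5p was higher in Ago2 by 1.96, again in 16 of 16 pairs, where 14.8% of miRNAs were.

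Between the sexes, the main arm whose level passed in both precipitates with total mapped reads as library size was miR-33-5p. In Ago1 it was 0.0537 to 0.173% in males (median 0.0813%) and 0.118 to 0.202% in females (median 0.170%), overlapping only through 1 library, wDah males at 35 d of experiment 2 (0.173%). In Ago2 males had 0.0625 to 0.376% (median 0.153%) and females 0.243 to 0.874% (median 0.545%). The log2 difference, female minus male, was 0.93 ± 0.22 (SE; edgeR, adjusted p = 0.00139) in Ago1, in 7 of 8 pairs, and 1.77 ± 0.28 (adjusted p = 3.1e-05) in Ago2, in 8 of 8. It was present in both experiments, with 1.22 and 0.65 in Ago1 and 1.99 and 1.44 in Ago2. With TMM factors the differences were 0.40 (adjusted p = 0.133) and 0.20 (adjusted p = 0.585), and the median of all features moved from 0.38 to -0.13 in Ago1 and from 1.19 to -0.25 in Ago2. Median-of-ratios factors also lost both calls (0.43, adjusted p = 0.074, in Ago1 and 0.51, adjusted p = 0.137, in Ago2). So did DESeq2 (0.43, adjusted p = 0.054, and 0.51, adjusted p = 0.077). The sexes differed widely at all features: 61.7% passed in Ago1 (43.8% higher in females) and 72.7% in Ago2 (53.8% higher and 18.9% lower). Among miRNAs alone, 49.7% of 199 passed in Ago1 and 60.9% of 138 in Ago2. Of the 6 members, 1 passed in Ago1 and 3 in Ago2, so the members as a set do not exceed these shares.

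miR-33-5p relative to miR-8-3p, which needs no scaling, differed between the sexes. In Ago1, males had 1.38 to 2.47 reads of miR-33-5p per 100 of miR-8-3p and females 3.56 to 5.83, without overlap. In Ago2, males had 2.72 to 8.66 and females 8.10 to 28.3, which overlapped. The log2 difference was 1.26 in Ago1 and 1.69 in Ago2, positive in 8 of 8 pairs in both (exact sign-flip permutation test, p = 0.00781, the smallest possible; adjusted p = 0.0164). Of the miRNAs tested, 38.7% of 111 in Ago1 and 25% of 56 in Ago2 also rose against miR-8-3p in all pairs. Set against miR-278-3p, miR-33-5p was higher in females by 0.79 in Ago1 and 2.35 in Ago2, in 8 of 8 pairs each, where 23.4% and 33.9% of miRNAs were.

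**Figure D4:**
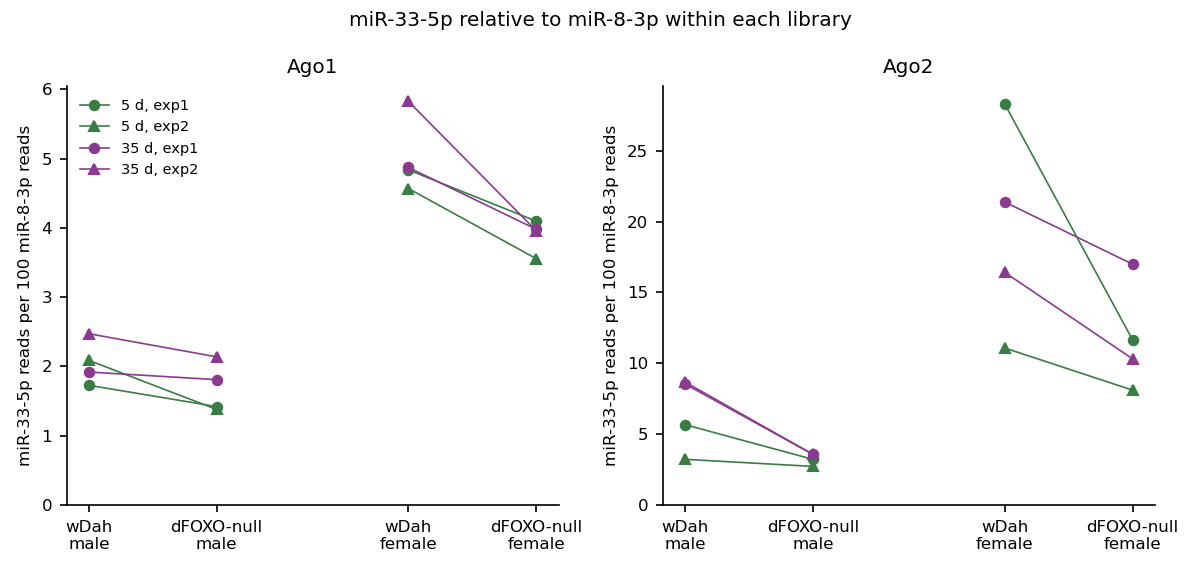
Reads of miR-33-5p per 100 reads of miR-8-3p in the same library, 1 point per library on axes that start at 0, with a line joining wDah and dFOXO-null of the same sex, age (colour) and experiment (shape). In Ago1 the females (3.56 to 5.83) lie above all males (1.38 to 2.47), and dFOXO-null libraries lie below their wDah partners in 8 of 8 pairs in each precipitate.

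The sex differences of miR-8 and miR-278 varied with the scaling too. miR-278-3p in Ago2 was 0.799 to 1.68% in males (median 1.13%) and 0.494 to 1.16% in females (median 0.820%). Its log2 difference was -0.64 ± 0.24 (edgeR, adjusted p = 0.024), lower in females in 8 of 8 pairs. With TMM factors it was -2.26 (adjusted p = 8.5e-08), but scaled to miRNA reads alone it was -0.15 (adjusted p = 0.53). The call was also lost without any 1 of 6 Ago2 libraries: wDah females of experiment 1 at either age, dFOXO-null females of experiment 1 at either age, and males of experiment 2 at 35 d of either genotype, with -0.63 to -0.48 without them. In Ago1 miR-278-3p had a difference of 0.13, which became -0.41 with TMM. Relative to miR-8-3p, which needs no scaling, miR-278-3p was higher in females by 0.47 in Ago1 in 7 of 8 pairs (exact sign-flip permutation test, adjusted p = 0.0379) and lower by -0.65 in Ago2 in 8 of 8 (adjusted p = 0.0164), where 33.9% of miRNAs were lower in all pairs. With 21-nt reads alone the Ago2 value was -0.074 (p = 0.875, exact), and without the pairing the Ago1 value had p = 0.069 in the same permutation test. miR-8-5p and miR-8-3p were lower in females in 8 of 8 pairs in Ago1, by -1.18 ± 0.51 (adjusted p = 0.057) and -0.32 ± 0.16 (adjusted p = 0.093), and both passed with experiment number as a block (adjusted p = 0.0008 and 0.021). With TMM factors they were -1.67 (adjusted p = 0.0054) and -0.85 (adjusted p = 0.00035), and both also passed with median-of-ratios factors, DESeq2 and 21-nt reads. In Ago2, miR-8-3p had 0.014 and passed in either direction by scaling, lower in females with TMM (-1.57, adjusted p = 5.5e-05) and higher with miRNA reads as library size (0.51, adjusted p = 0.0074). miR-8-5p in Ago2 had -0.44 (adjusted p = 0.47), or -1.80 with TMM (adjusted p = 1.8e-05). miR-278-5p had -0.30 in Ago1 and -0.21 in Ago2 without passing, and passed with TMM in both (-0.86, adjusted p = 0.039, and -1.79, adjusted p = 6.9e-05).

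miR-33-3p was the only member whose sex difference was itself larger in Ago2 than in Ago1, in a contrast that was added after the data had been seen. In Ago2 it was 0.00188 to 0.0228% in males (median 0.00582%) and 0.0116 to 0.0665% in females (median 0.0338%), a log2 difference of 2.21 ± 0.43 (edgeR, adjusted p = 0.000245; 0.74 with TMM, adjusted p = 0.106), higher in females in 8 of 8 pairs although the ranges overlapped. In Ago1 the difference was -0.098 ± 0.38. The difference of the differences was 2.33 ± 0.58 (adjusted p = 0.0142), where 7.26% of all features passed (2.31% in this direction). For miR-33-5p this contrast gave 0.83 (adjusted p = 0.109) and for miR-278-3p -0.77 (adjusted p = 0.103), and both passed with a replicate block (adjusted p = 0.038 and 0.023). These Ago2 levels of miR-33-3p rest on 1 to 48 reads a library.

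Ovary markers moved with sex. The 3 ovary miRNAs (miR-318-3p, miR-994-5p and miR-989-3p) together made up 1.21 to 5.22% of Ago1 reads and 0.759 to 4.08% of Ago2 reads in females, against at most 0.00916 and 0.0922% in males, and all 3 passed in both precipitates. Of 4 testis miRNAs, 3 were listed; they were higher in males, with 3 passing in Ago1 and the 1 tested passing in Ago2, and miR-959-3p and miR-982-5p were at 0 in all Ago2 female libraries. The sum of the ovary miRNAs was lower at 35 d than at 5 d in females (median 1.70 against 4.05% in Ago1), while miR-33-5p in the same females had medians of 0.152% at 5 d and 0.173% at 35 d. The part of the gonads in the sex differences of miR-33 was not tested.

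For genotype, the comparison of dFOXO-null with wDah, 0 of the 6 members passed in Ago1 or in Ago2, where 0.649% and 0.402% of all features did. At an unadjusted p under 0.05, 0 members passed in Ago1 and 2 in Ago2, where 45 of 308 and 24 of 249 features did. Those 2 were the arms of miR-33. miR-33-5p in Ago2 was lower in dFOXO-null in 8 of 8 pairs, for example 0.383 and 0.243% in 5 d females against 0.770 and 0.349% in wDah, with a log2 difference of -0.76 ± 0.27 (edgeR, adjusted p = 0.238). miR-33-3p had -1.26 ± 0.43 (adjusted p = 0.223). Both missed the threshold, and each other setting, DESeq2, TMM and the replicate block included, also gave 0 members, with 2 members in Ago2 at an unadjusted p under 0.05 in DESeq2 and 3 in the others named. The unadjusted counts over all features in those settings are not given here.

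The ratio of miR-33-5p to miR-8-3p was lower in dFOXO-null within every pair. As percent of mapped reads in Ago1, miR-33-5p was lower in 5 of 8 pairs and higher in 3, while miR-8-3p was higher in 7 of 8. In Ago2, miR-33-5p was lower in 8 of 8 pairs and miR-8-3p higher in 5 of 8. For the ratio in Ago1, females had 4.10, 3.56, 3.98 and 3.96 reads per 100 in dFOXO-null. They had 4.84, 4.57, 4.87 and 5.83 in wDah, which did not overlap. Males had 1.38 to 2.14 in dFOXO-null and 1.73 to 2.47 in wDah. The log2 difference was -0.33 in Ago1 and -0.79 in Ago2, with 0 of 8 pairs higher in both (exact sign-flip permutation test, p = 0.00781, the smallest possible; adjusted p = 0.0164). The test treats these 8 pairs as independent, although they come from 2 experiments whose libraries share a source within each genotype. The 2 lines themselves were matched by experiment number alone. Of all miRNAs measured against miR-8-3p, 5.41% in Ago1 and 5.36% in Ago2 were lower in all pairs. With libraries exchanged freely, without the pairing, the p-values of the same permutation test were 0.36 and 0.14, and with 21-nt reads alone the Ago1 difference was -0.078 (p = 0.41). Against miR-278-3p the difference was -0.99 in Ago2, also lower in 8 of 8 pairs (adjusted p = 0.0164; 3.57% of miRNAs were; p = 0.195 without the pairing), and -0.50 in Ago1 (p = 0.10, exact permutation test).

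miR-278-3p ran the other way by genotype in Ago1 without passing the test. It was higher in dFOXO-null in 7 of 8 pairs, by 0.42 ± 0.20 on the log2 scale (edgeR, adjusted p = 0.319), with means of 0.090 in experiment 1 and 0.69 in experiment 2. The 2 highest libraries were dFOXO-null at 35 d of experiment 2, with 3.60% in females and 2.82% in males, while experiment 1 had 1.92 and 1.35%. wDah at 35 d had 1.60 and 1.19% in females and 1.14 and 1.66% in males. In 35 d females alone the difference was 0.98 ± 0.41 (adjusted p = 0.530).

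Age was compared as 35 d minus 5 d. In Ago1, 0 of the 6 members passed in edgeR or DESeq2 (1.3% of all features did in edgeR). In edgeR, 37 of 308 features had an unadjusted p under 0.05, among them 1 member, miR-33-5p. The log2 differences of the members lay between 0.13 for miR-278-5p and 0.83 for miR-8-5p (edgeR, adjusted p between 0.341 and 0.888). In Ago2, 0 members passed as well, where 0% of 249 features did, although 35 features and 4 members had an unadjusted p under 0.05. miR-33-5p was 0.0625 to 0.137% in 5 d males and 0.170 to 0.376% in 35 d males, and 0.243 to 0.770% in 5 d females and 0.405 to 0.874% in 35 d females. It was higher at 35 d in 8 of 8 sibling pairs, by 1.00 ± 0.27 (edgeR, adjusted p = 0.160). miR-8-5p (1.35 ± 0.53, adjusted p = 0.238) and miR-33-3p (1.02 ± 0.43, adjusted p = 0.270) were also higher in 8 of 8 pairs, and miR-8-3p (0.56 ± 0.18, adjusted p = 0.174) in 7 of 8. The summed level of 2 muscle miRNAs, miR-1-3p and miR-133-3p, had the opposite order, from 14.9 to 23.1% in 5 d males to 10.7 to 13.3% in 35 d males in Ago1, and from 11.7 to 15.1% to 8.15 to 11.6% in Ago2. Females overlapped between the ages, neither miRNA passed for age in either precipitate, and in Ago2 females, where miR-1-3p passed as lower than in males (-0.83), the sum was 3.28 to 9.10% over both ages. The nervous system miRNA miR-124-3p had -0.0087 for age in Ago1 and -0.079 in Ago2. The part of these cell types in the age differences was not tested.

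With experiment number as a block, 3 members passed for age in Ago2, among 17 features of 249. These were miR-33-5p (1.02, adjusted p = 0.015), miR-8-3p (0.56, adjusted p = 0.033) and miR-8-5p (1.27, adjusted p = 0.033). The same 3 passed when the block was the set of siblings within a genotype (12 features in all), while DESeq2 called miR-33-5p alone (adjusted p = 0.043). miR-278-3p had 0.11 in Ago2, a difference that changed sign with miRNA reads as the library size (-0.017). Whether the age difference varied with genotype, sex or Argonaute, and the genotype difference with sex or Argonaute, was tested as contrasts of the same fits, and 0 members passed in each, also at an unadjusted p under 0.05. Relative to miR-8-3p, miR-33-5p was higher at 35 d in 7 of 8 pairs in both precipitates, by 0.23 in Ago1 (exact sign-flip permutation test, adjusted p = 0.0379) and 0.45 in Ago2 (adjusted p = 0.0513), but with 21-nt reads alone the Ago1 difference was -0.14.

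**Figure D5:**
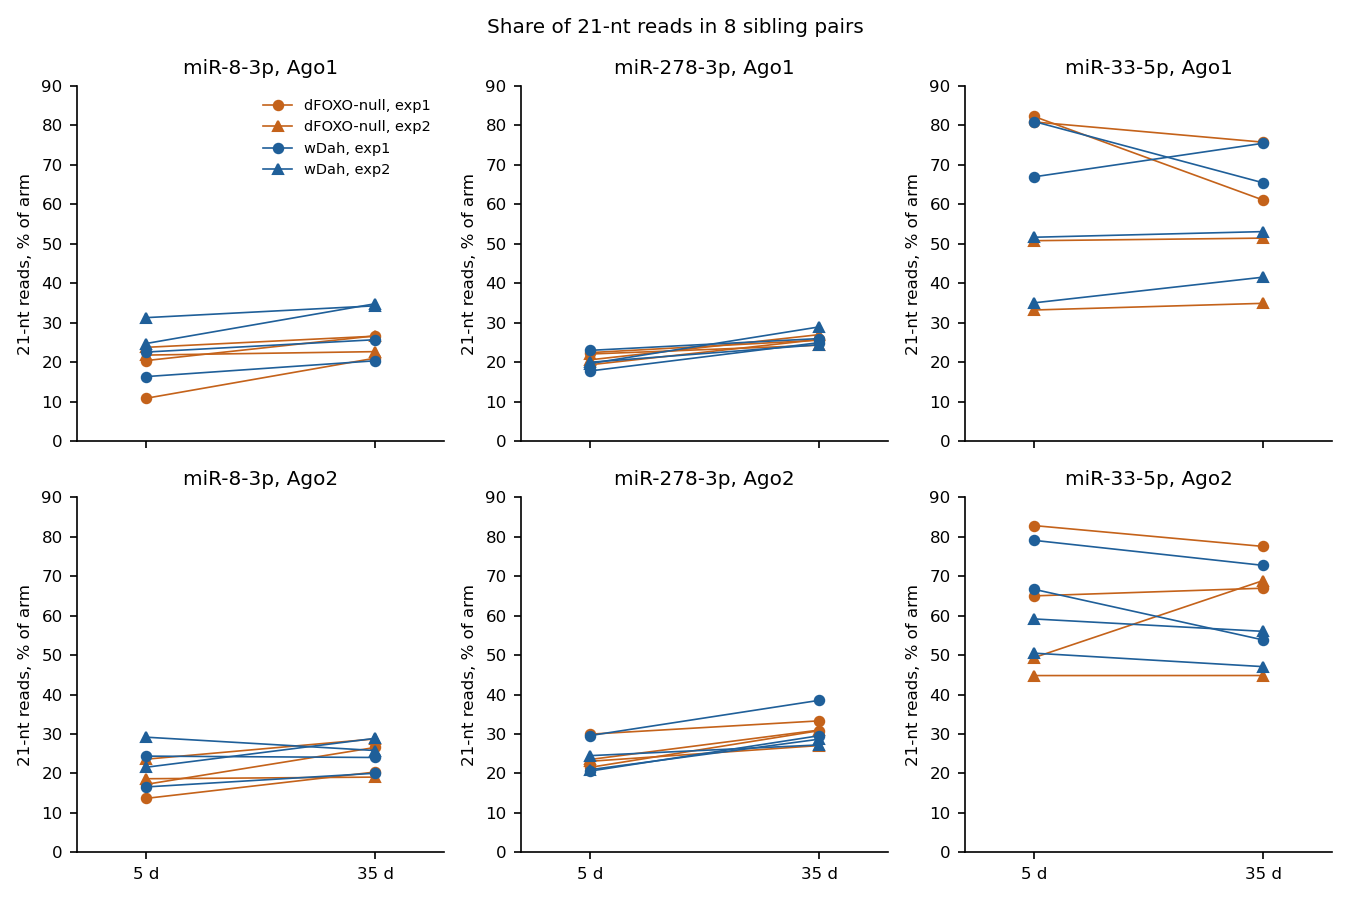
Reads of exactly 21 nt as percent of the reads of up to 25 nt for the 3 main arms, at 5 d and at 35 d, with a line joining sibling libraries, coloured by genotype and shaped by experiment. The share of miR-278-3p is higher at 35 d in 8 of 8 sibling pairs in both precipitates.

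Read length also differed with age. The share of miR-278-3p reads that were exactly 21 nt was 17.8 to 23.0% at 5 d and 24.3 to 29.0% at 35 d in Ago1, without overlap, a difference of 5.26 percentage points. In Ago2 it was 20.6 to 30.0% at 5 d and 27.1 to 38.5% at 35 d, a difference of 6.56 points. Both differences were positive in 8 of 8 pairs (exact sign-flip permutation test, p = 0.00781, the smallest possible; adjusted p = 0.0176 over the 9 tests of shares). Among all miRNAs, 17.8% of 107 in Ago1 and 23.2% of 56 in Ago2 rose in all pairs. miR-8-3p rose by 5.05 points in Ago1 in 8 of 8 pairs (the same p; 0.10 without the pairing) and had 3.59 points in Ago2 in 6 of 8 (p = 0.0547, exact). miR-33-5p had -2.88 and -1.19 points (p = 0.49 and 0.73, exact).

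The arms differed in read length before any comparison. miR-8-5p was mostly 21 nt, in 78.6% of its reads in Ago1 (rank 10 of 108 miRNAs) and 73.1% in Ago2 (rank 5 of 57), and miR-33-5p in 55.6 and 56.6%, against a median of 23.9% over miRNAs in Ago1. The share of miR-33-5p differed between experiments, 61.1 to 82.3% in experiment 1 and 33.2 to 53.1% in experiment 2 in Ago1, without overlap. Between Argonautes, miR-278-3p had 4.25 points more 21-nt reads in Ago2, in 15 of 16 pairs (exact permutation test, p = 9.2e-05; adjusted p = 0.000824), and miR-8-3p had 1.60 points fewer (p = 0.0449, adjusted p = 0.081).

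Other miRNAs tied to insulin signalling or metabolism in flies were counted from a list of 6 (miR-14-3p, miR-277-3p, miR-305-5p, miR-9a-5p, bantam-3p and let-7-5p). For age and for genotype, 0 of 6 passed in either precipitate in edgeR or DESeq2, with 1 at an unadjusted p under 0.05 in Ago1 and 0 in Ago2 in each comparison and tool. Over all features in edgeR, 37 (age) and 45 (genotype) of 308 had an unadjusted p under 0.05 in Ago1. In Ago2 these counts were 35 and 24 of 249. With experiment number as a block, miR-277-3p passed in Ago1 as lower at 35 d (-0.46, adjusted p = 0.043) and in dFOXO-null (-0.53, adjusted p = 0.020), whereas with 21-nt reads it passed as higher at 35 d (1.06 in Ago1 and 1.48 in Ago2). For sex, 2 of 6 were lower in females in Ago1, miR-9a-5p (-0.65) and miR-277-3p (-0.46). In Ago2, 4 of 6 were lower, miR-14-3p (-1.87), miR-277-3p (-1.19), miR-9a-5p (-1.17) and let-7-5p (-0.85), and all 4 stayed negative under the 4 scalings, let-7-5p turning to 0.17 with 21-nt reads alone. In this fit 0 were higher, but with the block bantam-3p (0.35) passed as higher in females in Ago1 and miR-305-5p (0.80) in Ago2, and miR-14-3p (-0.61) as lower in Ago1. The medians of the list were -0.41 in Ago1 and -1.01 in Ago2, beside 0.38 and 1.19 over all features and -0.25 and -0.26 over miRNAs. In Ago2, 18.9% of all features and 34.1% of miRNAs passed as lower in females. In Ago1, 61.7% of all features and 49.7% of miRNAs passed in either direction, of which 43.8% and 22.1% were higher in females and the rest lower. In Ago2 against Ago1, 3 of 6 were lower, miR-14-3p (-1.32), miR-277-3p (-0.46) and bantam-3p (-0.45), where 11.6% of all features and 18% of miRNAs were. With the block 5 of 6 passed as lower, but with miRNA reads alone as library size only miR-14-3p did. For sex and for Ago2 against Ago1, the shares over all features in these 2 settings are not given here.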

How the data were processed

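Per the study's methods, reads were trimmed with Trim Galore, aligned with Bowtie to all valid positions with up to 1 mismatch, and counted with featureCounts (versions not given in the sources used here). The deposited whole-number counts per miRNA, transposon and virus were used, from the tables of reads of up to 25 nt and of 21 nt. The deposited percent values, which the authors made by dividing by total mapped reads, differed from recomputed ones by at most 0.121%. Spike-ins were left out of library sizes. edgeR 4.0.16 (R 4.3.3) fitted 1 mean per group by quasi-likelihood on features averaging at least 5 reads, with total mapped reads as library size and Benjamini-Hochberg adjustment over all features. Differences of effects were tested as contrasts. Arm ratios (0.5 reads added to each arm), 21-nt shares and ratios between arms were tested by exact two-sided sign flips over matched pairs (Python 3.11.15, scipy 1.17.1). The sign flips treat pairs as independent, although libraries of 1 genotype and experiment share a source. Alternatives were TMM, median-of-ratios factors, miRNA reads as library size, DESeq2 1.42.0, no filter, 21-nt reads, replicate blocks and each library left out. Same-numbered libraries deviated together, with r = 0.254 to 0.646 for Ago1 siblings and 0.362 to 0.465 for Ago2 siblings. Between the sexes r was 0.428 to 0.654 in Ago1 and 0.248 to 0.541 in Ago2. Between the genotypes it was 0.415 to 0.764 and 0.198 to 0.463. The numbers were therefore taken to pair the samples in the sign flips and replicate blocks, while the main edgeR fits left the pairing out. Between the genotypes, these correlations in the same data were the only ground for pairing. On simulated counts, 9 or 10 of 10 features changed 4-fold were recovered per comparison, but for age only 2 of 10 changed 2-fold in Ago1 and 4 of 10 in Ago2. No 2 replicates agreed within sampling noise (lowest ratio of chi-square to its degrees of freedom, 14.8). The members, lists and tests were chosen with earlier results of these data known. The named miRNAs are the members, those of the lists and, for each member averaging 100 reads or more in Ago1, the 3 most alike over the Ago1 libraries. Nothing in the labels says that replicates were more than separate sets of flies of 1 stock, and p-values measure the spread between these libraries. Sequences and positions come from the dm6 annotation given with the reference genome.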

Additional observations from a re-analysis of the deposited data

Results flagged for a closer look

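The sex difference of miR-33-3p differed between the Argonautes: the female minus male log2 difference in Ago2 exceeded that in Ago1 by 2.33 (edgeR, adjusted p = 0.0142). In Ago2 it was higher in females in 8 of 8 pairs, and in Ago1 the difference was -0.098 ± 0.38. Across the scalings the adjusted p lay between 0.0005 and 0.0185. With 21-nt reads alone the value was 0.79 (adjusted p = 0.621). In Ago1 the arm stood at 3 to 63 reads a library and in Ago2 at 1 to 48.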

How the results depend on the processing

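Depth limits the minor arms most: miR-33-3p in Ago1 and miR-278-5p in Ago2 fell below the filter with 21-nt reads and have no value there. The number of members passing for age in Ago2, 0 at first, was 1 with median-of-ratios factors or DESeq2 and 3 with either replicate block. For sex in Ago1, 1 passed at first and 3 with TMM, median-of-ratios factors, DESeq2, 21-nt reads or either block, with 1 to 2 when a library was left out. For sex in Ago2, 3 passed at first and 5 with median-of-ratios factors, DESeq2 or 21-nt reads. For the differences of effects between Argonautes, 1 passed at first and 3 with miRNA reads as library size or a replicate block, with 1 to 2 without a library. The causes were not tested. The block changed no other count of members by over 1.5 times. Except for age in Ago2 with a block, the calls over all features under these settings are not given here. The changes in these counts are therefore not read as results about the members.

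Some members changed sign. With TMM, these were miR-278-3p for sex in Ago1 (-0.41), miR-8-3p for genotype (-0.11) and sex (-1.57) in Ago2, and miR-278-5p (-1.13), miR-33-5p (-0.57) and miR-8-5p (-0.69) for Ago2 against Ago1. Median-of-ratios factors and DESeq2 each gave -0.062 for miR-278-5p by age in Ago1, -0.36 for miR-278-3p by sex in Ago1, -0.032 for miR-278-3p by age in Ago2, -1.25 for miR-8-3p by sex in Ago2, and -0.78, -0.26 and -0.55 for miR-278-5p, miR-33-5p and miR-8-5p between Argonautes. miRNA reads as library size gave -0.017 for miR-278-3p by age, 0.30 for miR-278-5p and 0.054 for miR-8-5p by sex in Ago2, and 0.19 for miR-8-3p between Argonautes. With 21-nt reads, miR-33-5p by age (-0.094), miR-278-5p (-0.23) and miR-8-3p (-0.094) by genotype in Ago1, miR-8-3p by genotype (-0.20) and sex (-0.86) in Ago2, miR-278-5p between Argonautes (-1.88), the sex effect of miR-33-5p between Argonautes (-0.30), and the age difference in Ago1 of miR-33-5p over miR-8-3p (-0.14) and over miR-278-3p (-0.23) were reversed.

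Leaving out 1 library, ranges that crossed 0 were, for age, -0.12 to 0.28 (miR-278-5p, Ago1) and -0.048 to 0.22 (miR-278-3p, Ago2); for genotype, -0.21 to 0.00069 (miR-33-5p, Ago1), -0.53 to 0.42 (miR-8-5p, Ago1) and -0.050 to 0.11 (miR-8-3p, Ago2); and for sex, -0.00033 to 0.29 (miR-278-3p, Ago1), -0.44 to 0.16 (miR-33-3p, Ago1), -0.36 to 0.048 (miR-278-5p, Ago2), -0.059 to 0.10 (miR-8-3p, Ago2) and -0.90 to 0.14 (miR-8-5p, Ago2). Leaving out 1 pair, they were -0.055 to 0.22 for the age difference of miR-278-3p over miR-8-3p in Ago1 and -4.15 to 0.47 points for the 21-nt share of miR-33-5p by age in Ago2.

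Without the pairing, differences that lost an unadjusted p under 0.05 were the 21-nt share of miR-8-3p between Argonautes (-1.60 points; -0.082 as log2; -1.89 to -1.14 without 1 pair) and by age in Ago1 (5.05), and miR-33-5p over miR-8-3p by age (0.23 in Ago1, 0.45 in Ago2) and genotype (-0.33 and -0.79), the same over miR-278-3p by age (0.93) and genotype (-0.99) in Ago2, and miR-278-3p over miR-8-3p by sex in Ago1 (0.47) and age in Ago2 (-0.48). With 21-nt reads, miR-33-5p over miR-8-3p gave 0.18 for age in Ago2 (0.31 to 0.57 without 1 pair) and -0.078 for genotype in Ago1, below the threshold. The 21-nt share of miR-8-3p by age in Ago2 passed as log2 (0.25), with 2.76 to 4.58 points without 1 pair. The arm ratios kept sign and call under every setting tried.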

Other observations

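Levels were compared among the Ago1 libraries (n = 16) by Spearman's rho, as a description over libraries that share siblings, experiments and depth. The miRNAs that followed miR-8-5p most closely were miR-927-5p (0.94), miR-275-5p (0.94) and miR-125-3p (0.91). For miR-8-3p they were let-7-3p (0.80), miR-317-5p (0.80) and miR-317-3p (0.77). For miR-278-3p they were miR-1015-3p (0.76), miR-996-3p (0.61) and miR-308-3p (0.59), and for miR-278-5p miR-276a-3p (0.65), miR-305-5p (0.64) and miR-184-3p (0.60). For miR-33-5p they were miR-92a-5p (0.80), miR-9378-5p (0.78) and miR-996-3p (0.77). Some of these had few reads, with means of 7.19 a library for miR-308-3p, 11.4 for miR-9378-5p and 35.8 for let-7-3p. The partner arm was not among the 3 for any of these members, and miR-33-3p, with too few reads, was not compared.

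The genome-wide table listed the mir-33 locus with 1633 to 8263 reads in Ago1 and 101 to 878 in Ago2.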
